A study of Mus musculus with 8 samples.

Results

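The genes described here encode the protein components of the large subunit of the cytosolic ribosome. The members were 46 named *Rpl* and *Rplp* genes, each taken as the single protein-coding gene with that symbol, out of 55385 genes in the count table. They were measured by RNA-seq in R1 cells, a line of wild-type male mESCs (mouse embryonic stem cells) cultured on coated plates in N2B27 medium with 2i and Lif. Cells were infected for 2 days with lentivirus carrying shRNA1 or shRNA2, which both target *Eftud2*, or control nt-shRNA, and all groups were then kept in puromycin for 3 days. There were 3 shRNA1, 3 shRNA2 and 2 nt-shRNA libraries, labelled as biological replicates, all from one cell line. The 2 hairpins have different target sites, shRNA1 in the 3′ UTR and shRNA2 in the coding sequence, and the study describes shRNA2 as giving the stronger KD.

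The large subunit joins the small subunit on an mRNA and carries out peptide bond formation. Its catalytic centre is ribosomal RNA, and its proteins are placed around that RNA as stalks, tunnel walls and contacts with the small subunit. Nearly all these proteins are needed in 1 copy per ribosome, and cells usually hold their mRNAs at high and coordinated levels. In vertebrates the mRNAs typically start with a terminal oligopyrimidine (TOP) tract, a run of C and U through which LARP1 and mTOR signalling govern their translation and stability. Outside the ribosome, RPL5 and RPL11 together with 5S rRNA bind MDM2, the ubiquitin ligase that restrains p53. *Eftud2* encodes a GTPase of the U5 snRNP, a core part of the spliceosome.

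The sequence around the annotated transcription start was examined because the TOP tract is the feature these mRNAs are known to share. RefSeq promoter windows (build GRCm38.p6, 250 bases before to 50 after the start) were matched by symbol for 35 of the 46 members. The longest unbroken run of C and T was taken between 20 bases before and 50 bases after the start, since annotated starts can be displaced from the starts a cell uses. In 30 of the 35 members (85.7%) the run was at least 8 bases long, and the median run was 11 bases. Among all 27025 genes with such a window, 28.5% had a run of at least 8 bases, and the median was 6 bases. Windows of 30 bases from 8 members are printed 5′ to 3′ on the strand of the gene, with the run in capitals. The first 4 belong to members with some of the largest decreases, then come the MDM2-binding pair, and the last 2 belong to members that were not called lower with shRNA2.
Rpl39: gttcttccggtcccggCCTTTCTCTTCTCC
Rpl28: ctctcgtgTCTCTCTTTCCgtctccggccg
Rpl13: tgacgtcaCTTCCCTTTCgcctgattttga
Rplp2: cgtcagcgTCTTCCTTTCgccgccggacgc
Rpl5: tacagccaCTCTTTCTCacgtcgcttgcgt
Rpl11: gccggaagTCTCCCTCTCTCTTCCTgttct
Rpl7a: ccccacaaTTCCCTCTTCTTTCTTTCTCCa
Rplp0: ccgcctggTTCTCCTataaaaggcacacgc

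These windows lie at chrX:37085173-37085202 on the minus strand (*Rpl39*), chr7:4792954-4792983 on the plus strand (*Rpl28*), chr8:123102326-123102355 on the plus strand (*Rpl13*) and chr7:141447638-141447667 on the plus strand (*Rplp2*). The others lie at chr5:107900500-107900529 on the plus strand (*Rpl5*), chr4:136053359-136053388 on the minus strand (*Rpl11*), chr2:26910785-26910814 on the plus strand (*Rpl7a*) and chr5:115559470-115559499 on the plus strand (*Rplp0*). The longest run, 21 bases in *Rpl7a*, and the 7-base run in *Rplp0* both stood in genes that were not called with shRNA2. Across the 35 members, which share the same libraries, the Spearman correlation between run length and the log2 fold change was -0.10 with shRNA1 and -0.01 with shRNA2. The 7 letters CCGGAAG, the core bound by ETS factors, were found on either strand of the 300-base window in 14 members (40%) and in 9.9% of all genes with a window. The 7 letters AAGATGG, part of the motif of the factor YY1, were found in 4 members (11.4%) and in 7.3% of all genes. These matches are descriptions of letters and do not show that a factor was bound.

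The libraries held between 19569525 and 29871048 counts, and the nt-shRNA libraries were the deepest, with 28548237 and 29871048. *Eftud2*, the targeted gene, stood at 262 and 256 CPM with nt-shRNA, at 232, 229 and 225 with shRNA1 and at 198, 202 and 235 with shRNA2. CPM here is the fragment count relative to library size, scaled by TMM, a factor that corrects library size for differences in composition. Every KD library lay below both nt-shRNA libraries. By edgeR's quasi-likelihood test the shRNA1 value was -0.18 ± 0.07 on the log2 scale (SE, adjusted p = 0.0514) and the shRNA2 value -0.29 ± 0.07 (adjusted p = 0.00122), and the difference between the hairpins, -0.11 (95% interval -0.24 to 0.02), did not pass the test (adjusted p = 0.164). By qPCR, the study reported a larger decrease of *Eftud2* mRNA with each hairpin than these counts show. Its western blots also showed less EFTUD2 protein with either hairpin. The 8 embryonic stem cell markers summed to between 6583 and 6974 CPM in every library, but the genes within that sum moved in both directions, 3 higher and 2 lower with shRNA1 and 5 higher and 2 lower with shRNA2. Over all genes tested 13.8% were higher and 17.1% lower with shRNA1, and 27.2% and 28.7% with shRNA2. With shRNA2 the log2 fold changes of the stem cell markers ran from -0.96 for *Dppa5a* (adjusted p = 3.93e-08) and -0.29 for *Pou5f1* (adjusted p = 0.000862) to 0.76 for *Nanog* (adjusted p = 1.29e-08) and 1.32 for *Klf4* (adjusted p = 1.47e-10). The 6 fibroblast markers summed to 4.99 and 4.599 CPM with nt-shRNA and to 6.28 to 7.57 CPM in the 6 KD libraries, with 1 gene, *Col1a2*, called higher with each hairpin. The 4 endoderm markers summed to 20.2 and 19.8 CPM with nt-shRNA, 18.5 to 21.96 with shRNA1 and 14.1 to 17.0 with shRNA2, where 1 gene, *Gata6*, was called lower. The 3 mesoderm markers summed to 2.29 and 2.37 CPM with nt-shRNA, 1.40 to 1.497 with shRNA1 and 1.98 to 2.42 with shRNA2, with *T* called lower with shRNA1 and *Tbx6* with shRNA2. The 3 trophoblast markers summed to 18.1 to 24.6 CPM, with neither of the 2 tested genes called. The 5 neural markers summed to 18.7 and 21.8 CPM with nt-shRNA, 23.9 to 27.0 with shRNA1 and 34.7 to 48.8 with shRNA2. Of the 4 neural genes tested, 1 was called higher, *Tubb3*, with means of 10.2, 15.6 and 30.5 CPM in the 3 groups. *Sox1* (6.39, 5.91 and 5.53 CPM) and *Pax6* were not called. None of the markers of these lists was at 0 in all libraries. Low counts left some untested, so that 3 of 6 fibroblast, 3 of 4 endoderm and 2 of 3 mesoderm markers were tested. The part of these stem cell, neural, fibroblast, endoderm and mesoderm markers in the results below was not tested.

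In both KDs the transcripts of most large subunit genes were lower than with nt-shRNA. Called decreases ran on the log2 scale from -0.20 (*Rpl7*) to -0.70 (*Rpl36*) with shRNA1. With shRNA2 they ran from -0.17 (*Rpl30*) to -0.87 (*Rpl36*). With shRNA1, 43 of 46 members fell and none rose, with a median log2 fold change of -0.41, a decrease of 24.6%. Over all 17445 genes tested in this comparison, 17.1% were called lower and 13.8% higher (30.9% in either direction) at an adjusted p under 0.05, and the median log2 fold change was -0.01. With shRNA2, 37 members fell, 2 rose and 7 were not called, with a median log2 fold change of -0.36, a decrease of 22.1%. Here 28.7% of all genes were called lower and 27.2% higher (55.9% in either direction), with a median of 0.004. The members that fell were those of the shRNA1 comparison less 6, since 37 members were called lower in both. The 2 comparisons share the same nt-shRNA libraries, so that agreement between them is not independent. No member changed by more than 1 on the log2 scale in either comparison. Among called genes, the median size of the log2 change was 0.42 for members and 0.44 for all genes with shRNA1, and 0.42 for members and 0.59 for all genes with shRNA2.

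**Figure D1:**
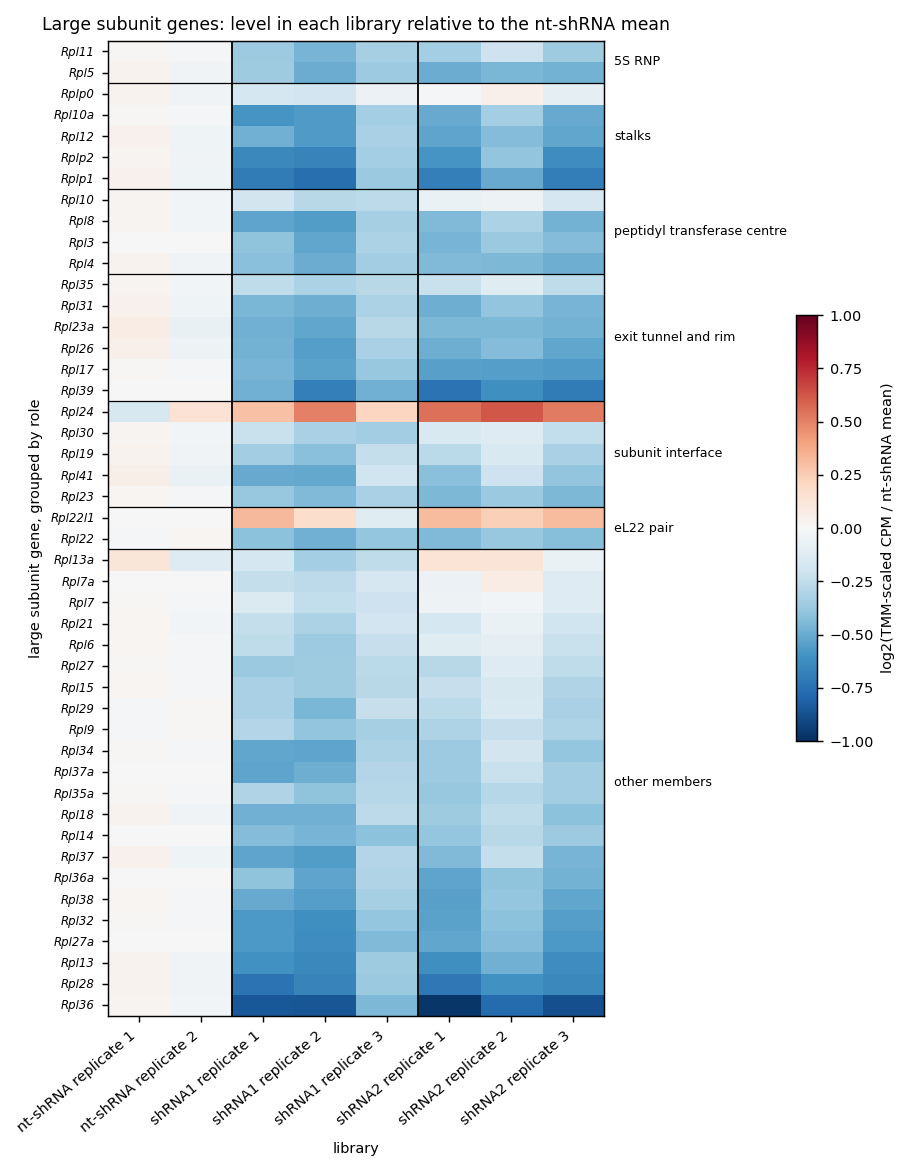
Level of each of the 46 large subunit genes (rows, grouped by role) in each of the 8 libraries (columns), as the log2 ratio of TMM-scaled CPM to the nt-shRNA mean. Blue is lower and red higher; the 6 KD columns are blue for nearly all genes, with *Rpl24* red in all 6, *Rpl22l1* red in 5 and *Rpl36* reaching -0.97 in shRNA2 replicate 1.

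The sum over the 46 genes was 57299.6 and 55431 CPM with nt-shRNA, 41564, 39895 and 45282 CPM with shRNA1, and 42243, 45083 and 41680.4 CPM with shRNA2. All 6 KD libraries lay below both controls, and the sums of the 2 hairpins overlapped. As a share of all counts, with no scaling, the members took 5.35% and 5.33% with nt-shRNA, 4.13% to 4.62% with shRNA1 and 4.23% to 4.503% with shRNA2. In bulk RNA, less of these mRNAs per cell and a change in which cells were sampled cannot be told apart. Per library, the median log2 ratio of the members to the nt-shRNA mean was -0.41, -0.49 and -0.32 with shRNA1 and -0.43, -0.28 and -0.42 with shRNA2. Replicate 3 of shRNA1 and replicate 2 of shRNA2 thus showed the smallest decreases of their groups. Replicate 3 was also the deepest KD library, at 27501491 counts, and the part of depth was not tested. Libraries of the KD did not overlap nt-shRNA from below in 44 members with shRNA1 and in 41 with shRNA2, which compares with 30.2% and 36.0% of all genes tested.

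**Figure D2:**
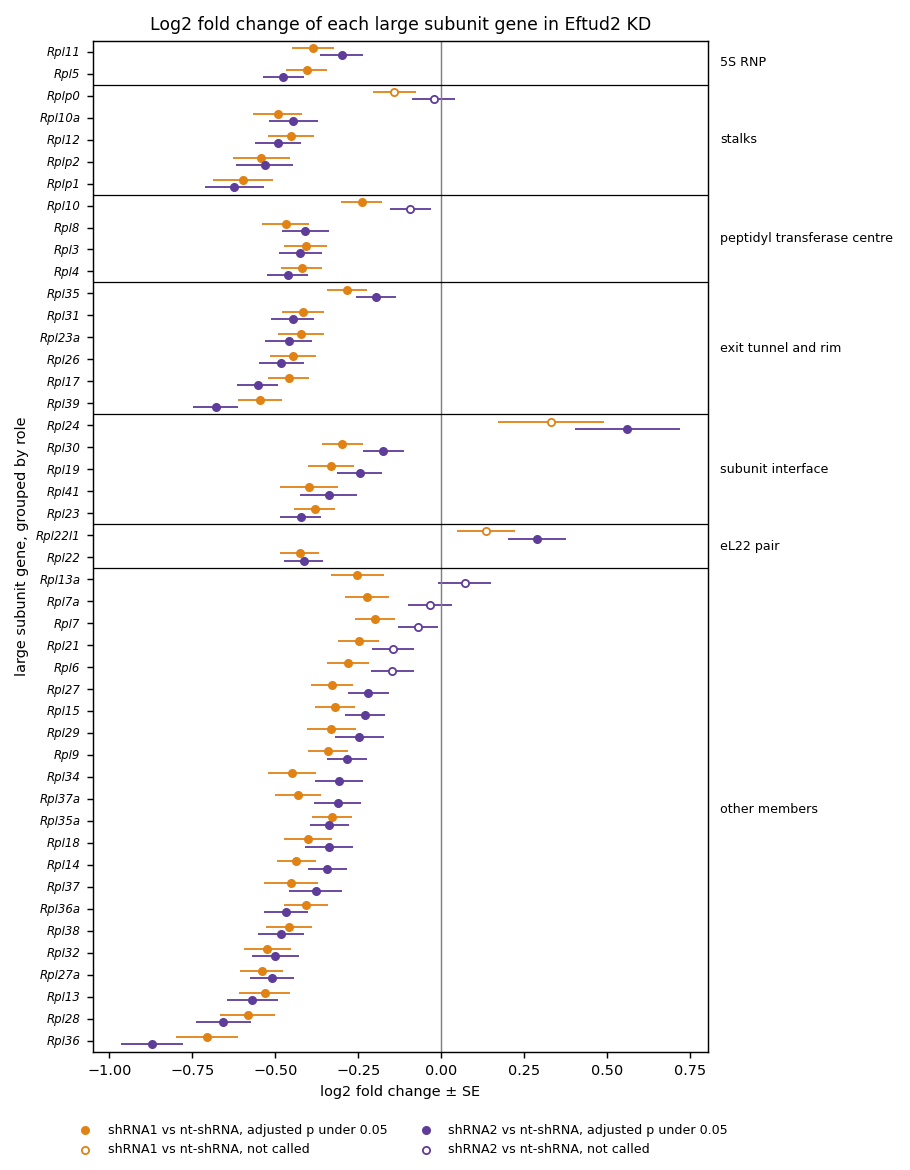
Log2 fold change and its SE (lines) of each large subunit gene with shRNA1 (orange) and shRNA2 (purple) compared to nt-shRNA, from edgeR. Filled points passed an adjusted p under 0.05; 43 orange and 37 purple points are filled left of 0, and 2 purple points, *Rpl24* and *Rpl22l1*, are filled right of 0.

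The 5S RNP pair was lower in both KDs. *Rpl5* lies on chromosome 5 from 107900502 to 107909005, and stood at 1824 and 1736 CPM with nt-shRNA, 1390, 1260 and 1384 with shRNA1 and 1260, 1297 and 1283 with shRNA2. No KD library reached a control library. Its log2 fold change was -0.40 ± 0.06 (SE, adjusted p = 7.41e-05) with shRNA1 and -0.48 ± 0.06 (adjusted p = 2.82e-06) with shRNA2. *Rpl11*, on chromosome 4 from 136028265 to 136053428, stood at 1077 and 1066 CPM with nt-shRNA, 834, 776 and 850.0 with shRNA1 and 846, 928 and 838 with shRNA2. It too lay below both controls in every KD library, with log2 fold changes of -0.39 ± 0.06 (adjusted p = 0.000159) and -0.30 ± 0.06 (adjusted p = 0.000587). In the same libraries *Mdm2*, the gene of the ubiquitin ligase these proteins bind, rose on the log2 scale by 0.37 with shRNA1 (adjusted p = 0.00715) and by 1.22 with shRNA2 (adjusted p = 8.99e-09), and *Trp53*, which encodes p53, by 0.62 with shRNA2 (adjusted p = 2.58e-06). The *Trp53* value with shRNA1 was 0.11 (adjusted p = 0.328). Of the 100-base windows of *Rpl5*, 91.1% occurred in transcripts of other genes, the largest share of any member. In *Rpl11* that share was 59.7%. Other genes, *Fam69a* and *Snord21*, overlapped 26.7% of the exonic bases of *Rpl5*. Shared fragments were not counted, and their part in the decreases of this pair was not tested.

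The stalks are flexible arms that recruit and recycle translation factors. The acidic proteins RPLP1 and RPLP2 sit on RPLP0 at the tip of one arm, with RPL12 at its base, while RPL10A forms the arm on the opposite side. Of these 5 genes, 4 fell in both comparisons and *Rplp0* was called in neither. *Rplp1* was the member with the highest level per length in nt-shRNA, at 4345 RPKM (CPM per kilobase of gene model). It stood at 2233 and 2103 CPM with nt-shRNA, 1333, 1287 and 1679 with shRNA1 and 1353, 1526 and 1345 with shRNA2. The control and KD libraries did not overlap. On the log2 scale it fell by 0.60 ± 0.09 with shRNA1 (adjusted p = 5.93e-05) and by 0.62 ± 0.09 with shRNA2 (adjusted p = 9e-06). *Rplp2*, whose protein pairs with RPLP1, stood at 1518 and 1454 CPM with nt-shRNA, 952, 938 and 1173 with shRNA1 and 989, 1130 and 966 with shRNA2. Its decrease was close to that of its partner, with log2 fold changes of -0.54 ± 0.09 (adjusted p = 9.98e-05) and -0.53 ± 0.09 (adjusted p = 3.35e-05). *Rplp0*, on chromosome 5 from 115559467 to 115563727, stood at 1311 and 1250 CPM with nt-shRNA, 1137, 1119 and 1227 with shRNA1 and 1261, 1325 and 1196 with shRNA2. The shRNA1 libraries lay below the controls, while the shRNA2 libraries overlapped them. With shRNA1 the value was -0.14 ± 0.06 (adjusted p = 0.104), but it was called lower without shRNA1 replicate 3 (-0.18, adjusted p = 0.0278) and was -0.03 at library size alone. With shRNA2 it was -0.02 ± 0.06 (adjusted p = 0.784), and it took the other sign under 8 of 19 alternative settings. *Rpl12* and *Rpl10a* fell by between 0.45 and 0.49 on the log2 scale in both comparisons.

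Around the peptidyl transferase centre, *Rpl3*, *Rpl4* and *Rpl8* fell in both KDs, and *Rpl10* with shRNA1. RPL3 reaches towards the catalytic site with a long finger. *Rpl3* stood at 2023 and 2029.8 CPM with nt-shRNA, 1535, 1417 and 1629 with shRNA1 and 1465, 1565 and 1499 with shRNA2. It fell by 0.41 ± 0.07 with shRNA1 (adjusted p = 0.00011) and by 0.42 ± 0.07 with shRNA2 (adjusted p = 1.9e-05), with no overlap between KD and control libraries. RPL10 is a late-joining protein whose loading completes the subunit in the cytoplasm. *Rpl10*, on chromosome X, stood at 952 and 919 CPM with nt-shRNA, 822, 773 and 782 with shRNA1 and 895, 904 and 832 with shRNA2. All KD libraries were below the controls, by -0.24 ± 0.06 (adjusted p = 0.00571) for shRNA1 and -0.09 ± 0.06 (adjusted p = 0.205) for shRNA2. The shRNA1 call was lost at library size alone (-0.13, adjusted p = 0.0961), with length offsets and the replicate block (-0.16, adjusted p = 0.0506) and without nt-shRNA replicate 1 (-0.21, adjusted p = 0.0723).

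All 6 genes of the exit tunnel and its rim, through which the new peptide leaves, fell with both hairpins. Their medians were -0.43 with shRNA1 and -0.47 with shRNA2. *Rpl39* encodes a very small protein lining the tunnel. It stood at 665 and 664 CPM with nt-shRNA, 475, 414 and 475 with shRNA1 and 399, 436 and 410 with shRNA2. It fell by 0.55 ± 0.07 with shRNA1 (adjusted p = 6.83e-06) and by 0.68 ± 0.07 with shRNA2 (adjusted p = 8.34e-08). *Rpl26*, whose protein lies at the tunnel rim and is also known to bind p53 mRNA, stood at 1459 and 1362 CPM with nt-shRNA, 1016, 962 and 1127 with shRNA1 and 1005, 1042 and 985 with shRNA2. Its changes were -0.45 ± 0.07 (adjusted p = 7.16e-05) and -0.48 ± 0.07 (adjusted p = 7.54e-06). In both genes the KD and control libraries were separate. The smallest decrease of the group was that of *Rpl35*, which stood at 546 and 525 CPM with nt-shRNA, 449.5, 429 and 441 with shRNA1 and 459, 494 and 448 with shRNA2. Its values were -0.28 ± 0.06 (adjusted p = 0.00146) and -0.20 ± 0.06 (adjusted p = 0.00945), again with separate libraries. With shRNA2 this call held in 13 of 19 alternative settings, was lost without nt-shRNA replicate 1 (-0.17, adjusted p = 0.0893), and the value was 0.0145 (adjusted p = 0.846) with GC offsets and the replicate block. Of its exonic bases, 66.2% overlapped other genes (*Wdr38* and *Arpc5l*), where fragments shared between genes were not counted.

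At the interface with the small subunit, *Rpl19*, *Rpl23*, *Rpl30* and *Rpl41* fell in both KDs, with log2 fold changes of -0.30 to -0.40 for shRNA1 and -0.17 to -0.42 for shRNA2. *Rpl30* stood at 311 and 301 CPM with nt-shRNA, 262, 245 and 239.96 with shRNA1 and 275, 280.0 and 258 with shRNA2. All KD libraries lay below the controls, by -0.30 ± 0.06 (adjusted p = 0.00112) and -0.17 ± 0.06 (adjusted p = 0.0211). The shRNA2 call of *Rpl30* held in 13 of 19 alternatives, with -0.0856 at library size alone (adjusted p = 0.225), and was lost without shRNA2 replicate 3 (-0.14, adjusted p = 0.0838), nt-shRNA replicate 1 (-0.15, adjusted p = 0.14) or nt-shRNA replicate 2 (-0.20, adjusted p = 0.0502). That of *Rpl19* held in 16, with -0.10 under GC offsets and the block (adjusted p = 0.185). *Rpl24*, whose protein forms a bridge between the subunits, was the exception. It stood at 3.49 and 4.32 CPM with nt-shRNA, 4.78, 5.53 and 4.53 with shRNA1 and 5.72, 5.998 and 5.60 with shRNA2, that is at 93 to 133 counts in any library. All 6 KD libraries were above the controls. The log2 fold change was 0.33 ± 0.16 (adjusted p = 0.124) with shRNA1 and 0.56 ± 0.16 (adjusted p = 0.00535) with shRNA2. Without nt-shRNA replicate 1 the shRNA1 value was 0.19 (adjusted p = 0.565), and the shRNA2 value was 0.41 and no longer called (adjusted p = 0.0945). Without nt-shRNA replicate 2 the shRNA1 value was 0.496 (adjusted p = 0.0993). Of the exonic bases of *Rpl24*, 47.0% overlapped the gene model *Gm28037*, which was listed at 0 in every library, and 80.1% of its 100-base windows occurred in transcripts of other genes, so that the value is limited by the counting and does not give the level of *Rpl24* mRNA. At 3.79 RPKM it was the lowest member per length, against 49.5 RPKM for the next, *Rpl13a*.

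The paralogs *Rpl22* and *Rpl22l1* were called in opposite directions with shRNA2. RPL22 and RPL22L1 can occupy the same place on the ribosome, and RPL22 is known to repress *Rpl22l1*. *Rpl22*, on chromosome 4 from 152325742 to 152334071, stood at 938 and 961 CPM with nt-shRNA, 716, 679 and 725 with shRNA1 and 699, 732 and 707 with shRNA2. No library of either KD overlapped the controls. The decrease was -0.43 ± 0.06 with shRNA1 (adjusted p = 2.51e-05) and -0.41 ± 0.06 with shRNA2 (adjusted p = 7.6e-06). *Rpl22l1*, on chromosome 3 from 28805436 to 28807424, stood at 121 and 120.3 CPM with nt-shRNA, 151, 137 and 111 with shRNA1 and 150.1, 143 and 150.2 with shRNA2. All shRNA2 libraries lay above the controls, whereas replicate 3 of shRNA1 lay below them. The log2 fold change was 0.29 ± 0.09 (adjusted p = 0.0091) with shRNA2 and 0.14 ± 0.09 (adjusted p = 0.258) with shRNA1. Without nt-shRNA replicate 2 the shRNA2 value was 0.28 (adjusted p = 0.0569), and the shRNA1 value ranged from 0.0345 without replicate 1 of shRNA1 (adjusted p = 0.8) to 0.25 without replicate 3 (adjusted p = 0.005). None of the 100-base windows of *Rpl22* and 50.8% of those of *Rpl22l1* occurred in other genes.

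**Figure D3:**
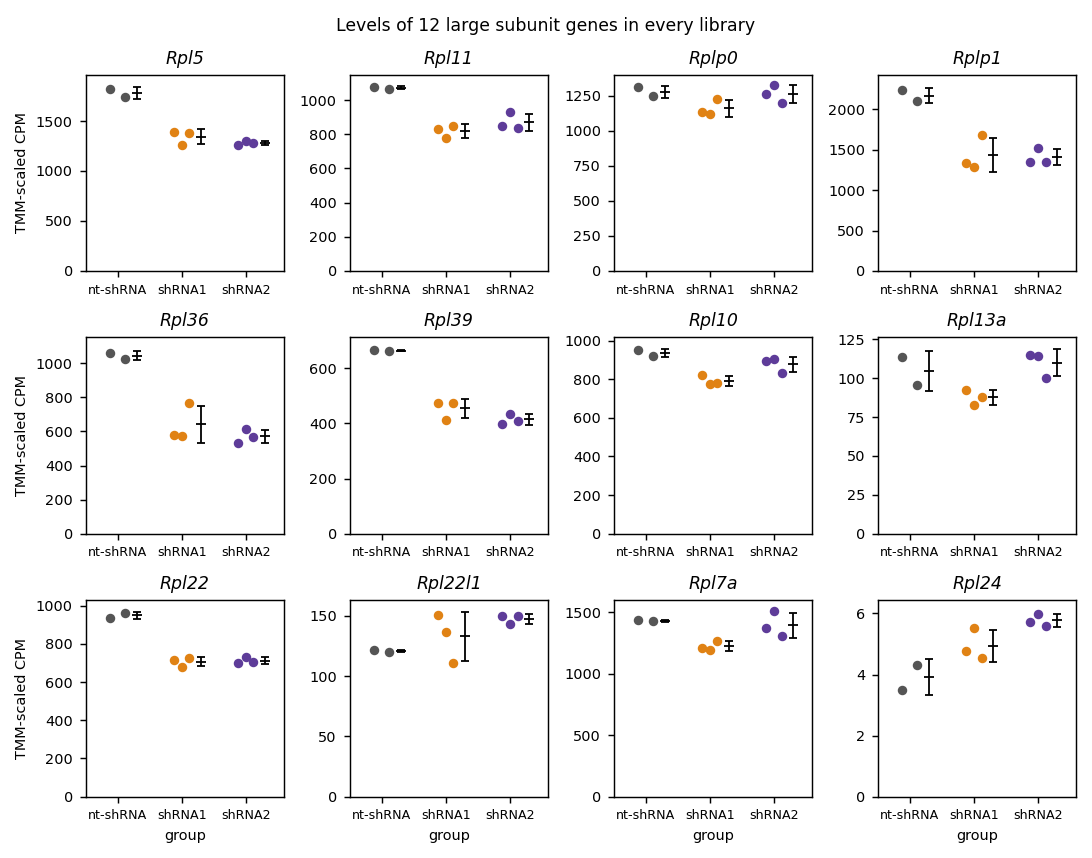
TMM-scaled CPM of 12 large subunit genes in every library of nt-shRNA (grey, n = 2), shRNA1 (orange, n = 3) and shRNA2 (purple, n = 3), with the mean and SD in black; each axis starts at 0. *Rpl5*, *Rpl11*, *Rplp1*, *Rpl36*, *Rpl39* and *Rpl22* are separated from the controls in both KDs, *Rplp0*, *Rpl7a* and *Rpl13a* overlap them with shRNA2, and *Rpl22l1* and *Rpl24* lie above them with shRNA2.

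The other 22 members lie elsewhere on the subunit. All 22 fell with shRNA1 and 17 with shRNA2, with medians of -0.40 and -0.32. The largest decrease of any member in both comparisons was that of *Rpl36*, on chromosome 17 from 56613416 to 56614243, a short gene model with a coding transcript of 383 bases. It stood at 1063 and 1027 CPM with nt-shRNA, 581, 576 and 766 with shRNA1 and 533, 612 and 569 with shRNA2. The libraries were separate. The values were -0.70 ± 0.09 with shRNA1 (adjusted p = 1.67e-05) and -0.87 ± 0.09 with shRNA2 (adjusted p = 2.44e-07), the latter a decrease of 45.4%. *Rpl28* stood at 1609 and 1531 CPM with nt-shRNA, 941, 987 and 1215 with shRNA1 and 954, 1030.4 and 1005 with shRNA2. It was next in size among these 22 members, at -0.58 ± 0.08 (adjusted p = 3.39e-05) and -0.66 ± 0.08 (adjusted p = 1.85e-06). *Rpl13* stood at 2639 and 2519 CPM with nt-shRNA, 1693, 1649 and 2013 with shRNA1 and 1690.2, 1849 and 1676 with shRNA2. Its values were -0.53 ± 0.08 (adjusted p = 4.17e-05) and -0.57 ± 0.08 (adjusted p = 4.38e-06). *Rpl27* was among the members with the smallest called decreases with shRNA2. It stood at 542 and 534 CPM with nt-shRNA, 416, 421 and 447 with shRNA1 and 443, 492 and 451 with shRNA2. It fell by 0.33 ± 0.06 with shRNA1 (adjusted p = 0.000525) and by 0.22 ± 0.06 with shRNA2 (adjusted p = 0.00573), where the call held in 16 of 19 alternatives, with -0.0604 under GC offsets and the block (adjusted p = 0.379). In *Rpl36*, *Rpl28* and *Rpl13*, as in *Rplp1* and *Rplp2*, replicate 3 of shRNA1 was the highest of its group.

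Besides *Rplp0* and *Rpl10*, the members not called with shRNA2 were *Rpl6*, *Rpl7*, *Rpl7a*, *Rpl13a* and *Rpl21*, with log2 fold changes from -0.15 to 0.07. Their adjusted p-values ran from 0.0564 for *Rpl21* to 0.675 for *Rpl7a*. With shRNA2, *Rpl21* was called lower in 7 and *Rpl6* in 5 of the 19 alternatives. With shRNA1 these 5 genes were all called lower, at -0.20 to -0.28, and some of these calls depended on single libraries. *Rpl7a* was no longer called without shRNA1 replicate 2 (-0.20, adjusted p = 0.0555), nt-shRNA replicate 1 (-0.22, adjusted p = 0.0855) or nt-shRNA replicate 2 (-0.23, adjusted p = 0.0668), and *Rpl13a* without shRNA1 replicate 2 (-0.21, adjusted p = 0.099) or nt-shRNA replicate 1 (-0.12, adjusted p = 0.423). *Rpl7* was called lower in 13 and *Rpl21* in 17 of the 19 alternatives. Apart from *Rpl7*, these genes hold snoRNA genes within their span, and RPL13A is also known as the regulator that blocks translation of inflammatory mRNAs once released from the ribosome.

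The hairpins were compared with each other directly, as the test of whether these genes differed between them. The level of *Eftud2* itself did not separate the hairpins in these libraries. Of the 46 members 3 were higher with shRNA2 than with shRNA1 and none lower, whereas over all genes 16.9% were called higher and 18.7% lower (35.6% in either direction) in this comparison. With GC offsets 9 members were higher and 1 lower, and with GC offsets and the replicate block 11 were higher. Of all 17445 genes, 3415 were higher and 3488 lower with GC offsets, and 3491 were higher and 3550 lower with the block as well. In the fit as reported, the median of the members was 0.06 and that of all genes -0.0008. The libraries of the hairpins did not overlap in 7 members that were higher with shRNA2 and in 1 that was lower, *Rpl17*, beside 23.6% and 24.1% of all genes. *Rpl13a* stood at 92.6, 82.8 and 87.7 CPM with shRNA1, at 115, 115 and 99.9 with shRNA2 and at 114 and 95.4 with nt-shRNA. The shRNA2 libraries were all above the shRNA1 libraries, by 0.32 ± 0.07 (adjusted p = 0.00192, 95% interval 0.17 to 0.48). *Rpl7a* stood at 1213, 1193 and 1270.3 CPM with shRNA1, 1375, 1508 and 1309 with shRNA2 and 1435 and 1427 with nt-shRNA. Its difference was 0.19 ± 0.06 (adjusted p = 0.0174, 95% interval 0.07 to 0.31), again with separate libraries. That of *Rpl10* was 0.15 ± 0.06 (adjusted p = 0.0445, 95% interval 0.03 to 0.26), and this call held in 9 of 19 alternatives. It was lost without shRNA1 replicate 2 or 3 (0.13 and 0.14), shRNA2 replicate 1 or 2 (0.13 and 0.125) or nt-shRNA replicate 1 or 2 (both 0.14), with adjusted p-values up to 0.157. The call of *Rpl7a* was lost without shRNA1 replicate 1 (0.18, adjusted p = 0.0546), without shRNA1 replicate 2 (0.17, adjusted p = 0.0637) or without shRNA2 replicate 2 (0.13, adjusted p = 0.112). The number of members called higher ranged from 1, without either shRNA1 replicate 2 or shRNA2 replicate 2, to 6 without shRNA1 replicate 3, with 5 without shRNA2 replicate 3, and 2 without shRNA2 replicate 1 or without either nt-shRNA library. For *Rpl13a*, 35.4% of exonic bases overlapped other genes, mainly *Gm45713*, which was listed at 0 throughout, so its CPM covers part of the gene.

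For the other 43 members the test did not separate the hairpins. The 95% interval of the difference lay within 0.3 on the log2 scale in either direction for 41 of the 46, the others being *Rpl24*, *Rpl22l1*, *Rpl7a*, *Rpl13a* and *Rpl36*. *Rpl36* had the lowest value, -0.17 (95% interval -0.34 to 0.01, adjusted p = 0.134), which rested on shRNA1 replicate 3, since without it the value was -0.0194 (adjusted p = 0.836). *Rpl36* was called lower without a filter (-0.18, adjusted p = 0.0049) and with length offsets, either alone (-0.24, adjusted p = 0.0257) or combined with the replicate block (-0.23, adjusted p = 0.0133). *Rpl39* was at -0.13 (95% interval -0.26 to -0.01, adjusted p = 0.0941) and was called lower in 4 of the 19 alternatives. *Rpl5* differed by -0.07 (95% interval -0.19 to 0.05) and *Rpl11* by 0.09 (95% interval -0.03 to 0.21). The intervals are for single genes, without adjustment for the number of genes.

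**Figure D4:**
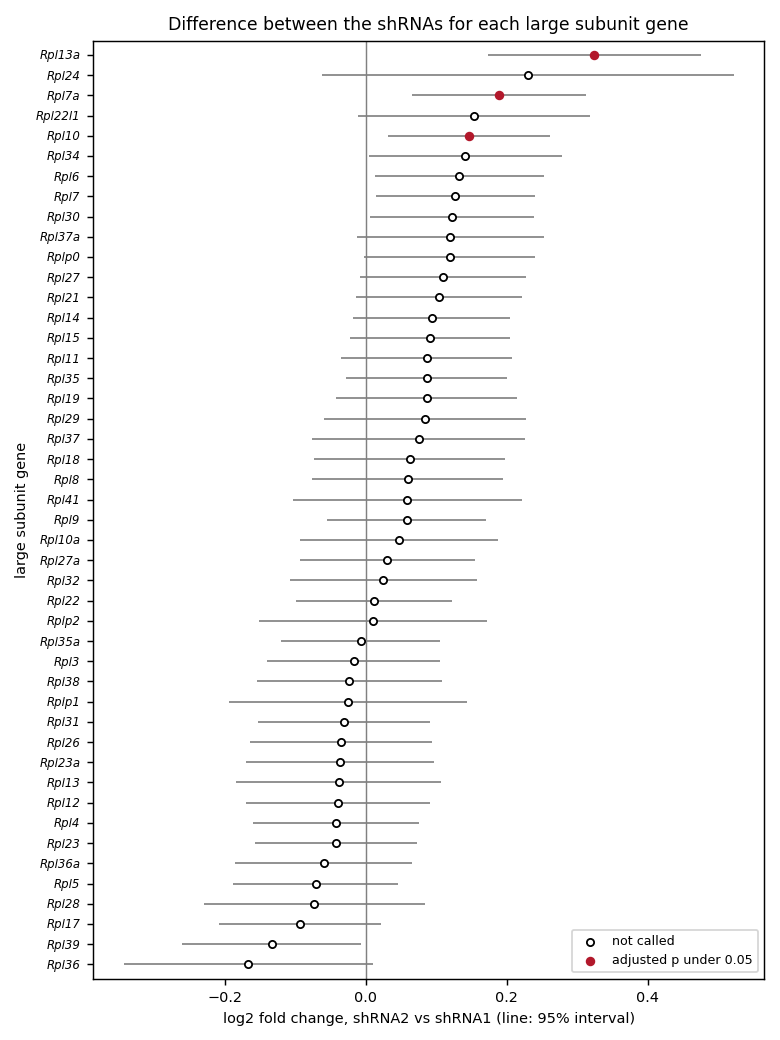
Log2 fold change of each large subunit gene with shRNA2 compared to shRNA1 (points) and its 95% interval (lines), ordered by value. Red points, *Rpl13a*, *Rpl7a* and *Rpl10*, passed an adjusted p under 0.05; the intervals of most other genes include 0 and stay within 0.3.

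Levels per length differed widely between members. With nt-shRNA they ran from 4345 RPKM for *Rplp1*, through 2729 for *Rpl36*, 2158 for *Rpl4* and 2102 for *Rpl32*, to 60.8 for *Rpl22l1*, 49.5 for *Rpl13a* and 3.79 for *Rpl24*. The last 2 values are limited by the counting, as described above, and do not give the levels of those mRNAs. Other values are limited too, since shared fragments were not counted and RPKM divides by the whole gene model. For *Rpl35a* that model has 3526 bases and the coding transcript 519, while for *Rplp1* both have 499. Across the 46 genes, the Spearman correlation between the nt-shRNA RPKM and the log2 fold change was -0.55 with shRNA1 and -0.59 with shRNA2, and -0.52 and -0.56 without *Rpl24*. The points share the same libraries, and the nt-shRNA level enters both axes. The part of gene model length and shared fragments in these correlations was not tested. The number of introns, from 2 to 9 per coding transcript, had a Spearman correlation of 0.32 and 0.24 with the 2 fold changes, and the length of that transcript, from 383 to 2989 bases, 0.17 and 0.11. Of the 26 members with fewer than 5 introns, 25 were lower with each hairpin, and of the 20 with at least 5 introns, 18 were lower with shRNA1 and 12 with shRNA2. The medians of those 20 were -0.36 and -0.29, against -0.43 and -0.42 for the 26. GC content of the transcript had a Spearman correlation of -0.33 and -0.13. Of the members, 19 hold between them 38 snoRNA genes within their span, the usual home of such RNAs in introns of ribosomal protein genes. All 19 fell with shRNA1 and 14 with shRNA2, at medians of -0.42 and -0.46. Of the 27 without, 24 fell with shRNA1, and 23 fell and 2 rose with shRNA2, at medians of -0.40 and -0.34, so that with shRNA2 the counts and the medians of the 2 sets differ in opposite directions.

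Ribosomal protein genes have many processed pseudogenes, and fragments that align to several places were not counted. For 45 of the 46 members at least one 100-base window, the length of a read, occurred in a transcript of another gene, with a median of 41.15% of windows. Among the 23 members with fewer shared windows, 22 were lower with shRNA1 and 20 with shRNA2, at medians of -0.44 and -0.41. Among the 23 with more shared windows, 21 and 17 were lower, at medians of -0.34 and -0.28. The share was 1.4% in *Rpl8* and 1.8% in *Rpl39*. No recount of the fragments was made, and the part of shared windows in the decrease was not tested. The 285 pseudogenes that share windows with members summed to 1943 and 1865 CPM with nt-shRNA, to 1382, 1360.0 and 1586 with shRNA1 and to 1458, 1600.0 and 1455 with shRNA2. Relative to the sum of the members this was 3.33% to 3.55% in every library, so that the counts assigned to the copies kept nearly the same ratio to those of the members.

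Other genes of the translation machinery were read from lists for comparison. The small subunit genes, which supply the other part of the ribosome, were also mostly lower. With shRNA1, 31 of 34 were lower and none higher, and with shRNA2, 31 were lower and 2 higher, with medians of -0.42 and -0.35. As above, the shares of all genes were 17.1% lower and 13.8% higher with shRNA1 and 28.7% lower and 27.2% higher with shRNA2. *Fau*, *Rack1* and *Rps18* had the smallest adjusted p-values with shRNA2, at log2 fold changes of -0.78 (adjusted p = 1.85e-07), -0.65 (adjusted p = 1.11e-07) and -0.64 (adjusted p = 8.48e-07). *Fau* encodes a fusion of a ubiquitin-like protein with RPS30, and RACK1 is a scaffold on the head of the small subunit. A list of 17 genes with TOP mRNAs held mostly translation factors, but also genes of other functions, among them *Npm1*, *Nap1l1*, *Hnrnpa1* and *Tpt1*. Of these 17 genes, 11 were lower and none higher with shRNA1, and 7 were lower and 2 higher with shRNA2. The medians were -0.21 and -0.11. The 2 higher genes were *Npm1* and *Nap1l1*, at log2 fold changes of 0.32 and 0.15. The genes called lower were thus 64.7% and 41.2% of the list, the latter nearer to the 28.7% of all genes. *Eef2*, the translocase of elongation, fell by 0.45 with shRNA1 (adjusted p = 9.87e-05) and by 0.60 with shRNA2 (adjusted p = 9.18e-07). *Eef1a1*, which delivers aminoacyl-tRNA, fell by 0.35 and 0.38 (adjusted p = 0.000505 and 7.12e-05), and *Eif3f*, an initiation factor subunit, by 0.40 and 0.41 (adjusted p = 0.000115 and 2.59e-05).

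The genes that assemble and export the large subunit were mostly not lower. Of 27 such genes, 5 were higher and 2 lower with shRNA1, and 18 were higher and 3 lower with shRNA2, with medians of 0.04 and 0.30. The shares of all genes called higher were 13.8% and 27.2%. Compared directly, 18 of the 27 were higher with shRNA2 than with shRNA1 and 2 lower, beside 16.9% and 18.7% of all genes. *Nifk*, a nucleolar protein needed for maturation of large subunit rRNA, had means of 67.8 ± 3.5 CPM (SD, n = 2) in the controls, 86.3 ± 4.8 (n = 3) with shRNA1 and 123 ± 14 (n = 3) with shRNA2, and rose with log2 fold changes of 0.35 and 0.86 (edgeR adjusted p = 0.00306 and 5.15e-08). *Mdn1*, the large ATPase that strips assembly factors, rose by 0.35 and 0.63 (adjusted p = 0.000279 and 8.33e-08). *Heatr3*, which brings RPL5 to the nucleus, rose by 0.41 and 0.73 (adjusted p = 0.000316 and 1.28e-07), while *Rpl5* itself fell.

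The mitochondrial large subunit, a separate ribosome with nuclear-encoded *Mrpl* genes, had genes called in both directions. Of 48 tested genes, 2 were higher and 8 lower with shRNA1, beside 13.8% and 17.1% of all genes, and 13 were higher and 9 lower with shRNA2, beside 27.2% and 28.7%. The 8 and 9 lower genes are 16.7% and 18.8% of the list, and the medians were -0.10 and 0.03. *Mrpl20* rose with shRNA2 by 0.79 (adjusted p = 1.16e-07), while *Mrpl17* and *Mrpl24* fell by 0.52 and 0.46 (adjusted p = 9.19e-07 and 1.05e-05). Among 6 paralogs and fusions of large subunit genes outside the 46, *Rpl10l*, the testis paralog of *Rpl10*, rose by 0.29 with shRNA1 (adjusted p = 0.00136) and 0.53 with shRNA2 (adjusted p = 8.32e-07). *Rpl3l*, the muscle paralog of *Rpl3*, fell by 0.74 and 0.99 (adjusted p = 0.0149 and 0.00107) at a level of only 2.13 CPM in nt-shRNA, and *Rpl36al*, at 1.83 CPM, rose by 0.91 with shRNA2 (adjusted p = 0.00253). Of 9 regulators of TOP mRNAs and of the p53 link, 3 were higher and 1 lower with shRNA1, and 4 were higher and 2 lower with shRNA2. Over all genes these shares were 13.8% higher and 17.1% lower, and 27.2% higher and 28.7% lower. Besides *Mdm2* and *Trp53*, these included *Eif4ebp1*, the mTOR-controlled repressor of cap-dependent translation, which fell by 0.39 and 0.52 (adjusted p = 0.000391 and 4.28e-06). *Larp1*, which binds TOP mRNAs, was called in neither, at -0.11 (adjusted p = 0.134) and -0.05 (adjusted p = 0.494).

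**Figure D5:**
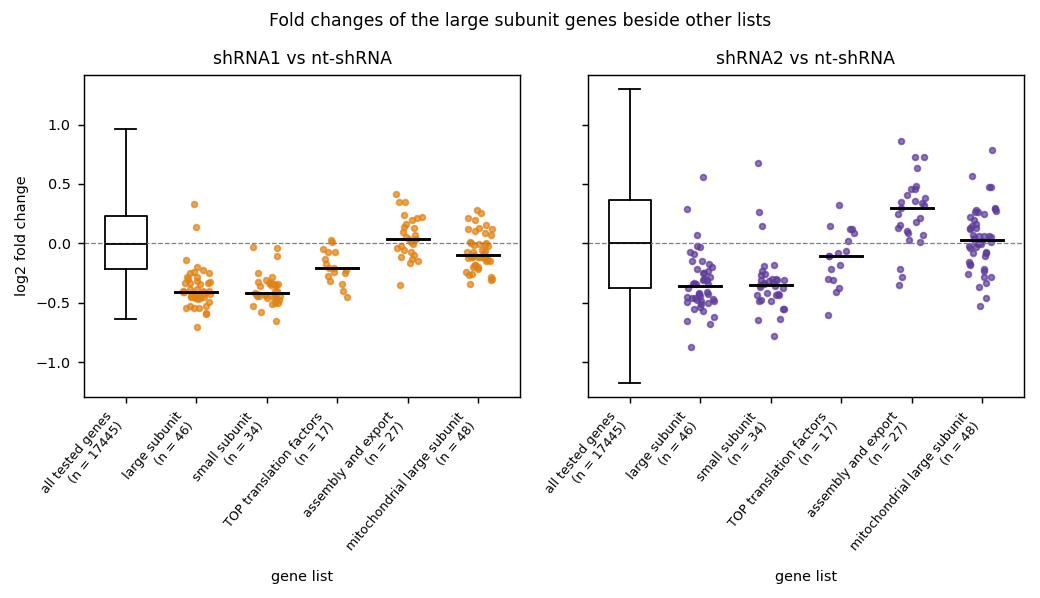
Log2 fold changes of the genes of 5 lists (points, with the list median as a bar) beside all 17445 tested genes (box from the first to the third quartile with the median, whiskers from the 5th to the 95th percentile) for each hairpin compared to nt-shRNA. The large and small subunit lists lie mostly below 0 in both panels, and the assembly and export list lies mostly above 0 with shRNA2, with a median of 0.30.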

How the data were processed

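Poly(A)-selected RNA of 8 libraries was sequenced as paired 100-base reads. The authors aligned reads with STAR (version not given in the sources used here) to GRCm38 (mm10) and deposited raw counts of fragments per gene from featureCounts 1.6.2 on GENCODE M24. Strand was ignored, and a fragment aligned to more than one place or assigned to more than one gene was not counted, which removes fragments from members with near-identical copies or overlapping genes. The deposited gene lengths, another unit, in bases, served only for RPKM and length offsets. Symbols for 55144 of 55385 genes came from GENCODE M21 by gene identifier, as did gene types, transcript structures and snoRNA genes. Gene coordinates (1-based) and overlaps between genes came from the exons listed with the deposited counts. No per-sample column was left out (0).

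The counts were fitted with edgeR 4.0.16 (R 4.3.3): filterByExpr (minimum count 10, 17445 genes, all 46 members), TMM, and glmQLFit and glmQLFTest with 1 coefficient per group over all 8 libraries and no block, with Benjamini-Hochberg adjustment over all genes tested. Genes under an adjusted p of 0.05 were called. The biological coefficient of variation was 0.0638. SE and 95% intervals come from the same fit. On simulated data with the same spread for every gene, its calls and fold changes were checked, but not its SE or intervals. P-values measure the spread between these cultures of one line. Chi-square per gene between libraries of a group was 3.12 to 12.0, more than sampling noise alone gives. Depth was 19569525 to 29871048 counts, where 3 counts are 0.100 to 0.153 CPM.

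Members, role groups and lists were chosen with earlier results of these data known. Members named with all values were *Rpl5*, *Rpl11*, *Rpl22*, *Rpl22l1*, *Rplp0*, *Rplp1*, *Rplp2*, *Rpl3*, *Rpl10*, *Rpl26*, the 5 called members with the largest and the 5 with the smallest log2 fold change with shRNA2, and the 3 furthest from 0 in each direction with shRNA1 and between the hairpins. From other lists the 3 genes with the smallest adjusted p with shRNA2 were named. Others, among them *Rpl19*, *Larp1* and the genes not called, were named after their values were seen. Alternatives were DESeq2 1.42.0 (Wald test, and its size factors), library size alone, 2 other filters, the compared groups alone, the replicate block, length offsets with and without the block, each library left out and, added after the data were seen, GC offsets with and without the block and a split at the median share of shared windows. Figures used matplotlib 3.10.9. Protein sequences were not analysed here.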

Additional observations from a re-analysis of the deposited data

Results flagged for a closer look

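Between the hairpins 3 large subunit genes differed by the direct test of shRNA2 compared to shRNA1, in edgeR's fit over all genes. The number called higher was 9 with GC offsets and 11 with GC offsets and the replicate block. Of all 17445 genes, 2941 were called higher in the fit as reported, 3415 with GC offsets and 3491 with the block as well. *Rpl13a* was higher with shRNA2 by 0.32 on the log2 scale (adjusted p = 0.00192), in 3 of 3 libraries above all shRNA1 libraries, and kept its call in all 19 alternatives. *Rpl7a* was higher by 0.19 (adjusted p = 0.0174) and *Rpl10* by 0.15 (adjusted p = 0.0445), both also with separate libraries, and these calls held in 16 and 9 of the 19 alternatives. None of the 3 was called with shRNA2 compared to nt-shRNA in the fit as reported, and all 3 were called lower with shRNA1. With shRNA2, *Rpl13a* was called higher under length offsets with the replicate block (0.16, adjusted p = 0.0467) and GC offsets with the block (0.22, adjusted p = 0.00339), and *Rpl10* lower under GC offsets (-0.15, adjusted p = 0.0235). *Rpl7a* shares 73.5% and *Rpl10* 84.4% of its 100-base windows with other genes, and the part of these copies in the difference was not tested.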

How the results depend on the processing

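Across 19 alternatives, 36 of the 43 members called lower with shRNA1 and 31 of the 37 with shRNA2 kept that call in each. The exceptions were *Rpl10*, *Rpl35*, *Rpl7*, *Rpl7a*, *Rpl13a*, *Rpl21* and *Rpl29* with shRNA1, and *Rpl35*, *Rpl19*, *Rpl30*, *Rpl27*, *Rpl29* and *Rpl37a* with shRNA2. The 2 calls of higher level with shRNA2, *Rpl24* and *Rpl22l1*, were each lost without an nt-shRNA library, and 1 of the 3 between the hairpins, *Rpl13a*, held in all. Few counts limit *Rpl24*, at 93 in nt-shRNA replicate 1, although that library was among the deepest.

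When libraries were scaled to their size alone, the median of all genes moved by 0.11 with shRNA1 and 0.09 with shRNA2. Of all 17445 genes, 9.82% and 23.4% were then called lower, and 4101 and 5850 genes were called higher. The medians of the members became -0.29 and -0.27, with 38 and 33 called lower, and 2 members, *Rpl24* and *Rpl22l1*, were called higher with shRNA1. Their distance from the median of all genes stayed at -0.40 and -0.36. With shRNA2, *Rplp0* became positive at library size alone (0.0668), at least 10 counts in every library (0.0024), length offsets (0.0402, and 0.0454 with the replicate block) and GC offsets (0.0637, and 0.075 with the block), and *Rpl7a* at library size alone (0.0543), length offsets (0.0232, with the block 0.0383) and GC offsets (0.018, with the block 0.0341). Between the hairpins, 1 member was called lower with library size alone, length offsets (also with the block) and GC offsets, and 2 without a filter. GC offsets called 9 higher, and 11 with the block, beside 3415 and 3491 of all 17445 genes. Length offsets with the block called 2 members higher with shRNA1, and GC offsets with the block 1. Each of these 2 settings called 3 higher with shRNA2, adding *Rpl13a* at 0.162 (adjusted p = 0.0467) and 0.224 (adjusted p = 0.00339). With shRNA2, *Rpl10* was called lower with GC offsets (-0.152, adjusted p = 0.0235), *Rpl35* became positive with GC offsets and the block (0.0145), and *Rpl7* at library size alone (0.0182). The cause was not tested.

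Leaving out 1 library at a time, members called lower ranged from 38 to 44 with shRNA1 and 34 to 39 with shRNA2, and called higher from 0 to 1 and 1 to 2. Between the hairpins 1 to 6 were higher and 0 to 1 lower. The medians ranged from -0.46 to -0.36 with shRNA1, -0.42 to -0.33 with shRNA2 and -0.0026 to 0.10 between the hairpins. With shRNA2, *Rplp0* ranged from -0.06 to 0.0158 (without shRNA2 replicate 3, and 0.009 without nt-shRNA replicate 1), *Rpl7a* from -0.0889 to 0.0125 (without shRNA2 replicate 3) and *Rpl13a* from -0.0536 (without nt-shRNA replicate 2) to 0.20. *Rpl13a* ranged with shRNA1 from -0.38 to -0.12, and lost its call without nt-shRNA replicate 1 or shRNA1 replicate 2.

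Libraries with the same replicate number deviated together little, if at all (correlations of -0.026 to 0.074 across genes). In its qPCR the study compared KD replicates pairwise with the corresponding nt-shRNA replicates. What the number marks in these libraries was not tested. With the replicate block the medians were -0.43 and -0.39, with 43 and 37 members called lower. Over all genes, the block gave 2694 higher and 3324 lower with shRNA1, against 2407 and 2981 without it. With shRNA2 it gave 4898 higher and 5136 lower, against 4748 and 5010.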
